A study of Mus musculus with 12 samples.

Results

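The genes of the proteasome and its helpers were followed through 12 RNA-seq libraries of mouse oocytes. Members were all gene models whose symbol is Psma to Psmg followed by a number, which gave 49 of the 55385 models in one deposited table and the same 49 of 55401 in the other, with Psmc3ip left out. They fall into 7 groups: the 20S alpha ring (7 genes), the 20S beta ring (7), tissue-specific 20S subunits (5), the 19S base (9), the 19S lid (8), activators and the inhibitor (6) and assembly chaperones (7). The oocytes came from ovaries at postnatal day 6 (non-growing oocytes) or day 7 (growing oocytes), with 2 libraries in each of 6 groups. PRC2 control oocytes carried EedF/+; Ddx4-Cre and PRC2 cKO oocytes EedF/-; Ddx4-Cre, each at both stages. PRC1 control growing oocytes carried Ring1-/-; Rnf2F/+; Ddx4-Cre, and the PRC1 cKO growing oocytes are labelled Ring1-/-; Ring1F/-; Ddx4-Cre, where the second allele repeats the name Ring1. Every group thus carried Ddx4-Cre, which is expressed from a germ cell promoter, and both PRC1 groups lacked Ring1 throughout the animal, so neither is wild type. Growth stage and age changed together and cannot be told apart. Nothing in the labels tells separate animals from repeat libraries of 1 pool, so p-values measure the spread between these libraries, which may be technical.

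The proteasome degrades proteins that carry ubiquitin chains. Its 20S core is a barrel of alpha and beta rings with the cutting sites inside, and the 19S cap recognises the chain, removes it, unfolds the substrate with a ring of ATPases and feeds it into the barrel. Other caps such as the PA28 complex, encoded by Psme1 and Psme2, open the barrel without ubiquitin, and some tissues exchange single subunits: Psmb8, Psmb9 and Psmb10 form the immunoproteasome, Psmb11 the thymoproteasome and Psma8 the proteasome of spermatocytes. Oocytes store proteins and RNA during growth, and the proteasome is among the machineries known to be needed for their later meiotic divisions. EED is a core subunit of PRC2, the complex that methylates histone H3, and RING1 and RNF2 are the ubiquitin ligases of PRC1, which is often found at CpG-rich promoters.

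In the comparison of PRC1 genotypes Psme1, Psmd14 and Psmb10 were called higher in the cKO, and Psmb11 did not pass as deposited. Whether CpG content relates to these changes was not tested. Promoters are shown for these 4 members because they differ in CpG content. Each is the window of 300 bases around a RefSeq start site (250 bases before it and 50 after it) on GRCm38.p6, read 5′ to 3′ on the gene's strand, with every CpG in capitals. Psme1 (chr14:55578244-55578543, plus strand) and Psmd14 (chr2:61711444-61711743, plus strand) hold 19 and 22 CpGs. Psmb10 (chr8:105938343-105938642, minus strand) and Psmb11 (chr14:54625060-54625359, plus strand) hold 3 and 4.
Psme1: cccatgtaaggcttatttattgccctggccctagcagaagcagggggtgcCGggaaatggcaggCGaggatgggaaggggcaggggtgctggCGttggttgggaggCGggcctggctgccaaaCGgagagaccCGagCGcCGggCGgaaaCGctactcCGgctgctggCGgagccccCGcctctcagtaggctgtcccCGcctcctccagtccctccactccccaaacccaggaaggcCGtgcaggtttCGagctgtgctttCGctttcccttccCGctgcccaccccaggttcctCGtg
Psmd14: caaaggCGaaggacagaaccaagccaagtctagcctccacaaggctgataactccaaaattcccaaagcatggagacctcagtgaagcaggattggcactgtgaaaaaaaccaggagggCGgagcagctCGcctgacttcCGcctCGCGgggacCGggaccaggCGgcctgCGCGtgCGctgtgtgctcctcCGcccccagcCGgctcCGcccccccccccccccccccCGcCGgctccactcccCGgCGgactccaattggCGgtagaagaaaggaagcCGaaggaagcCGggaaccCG
Psmb10: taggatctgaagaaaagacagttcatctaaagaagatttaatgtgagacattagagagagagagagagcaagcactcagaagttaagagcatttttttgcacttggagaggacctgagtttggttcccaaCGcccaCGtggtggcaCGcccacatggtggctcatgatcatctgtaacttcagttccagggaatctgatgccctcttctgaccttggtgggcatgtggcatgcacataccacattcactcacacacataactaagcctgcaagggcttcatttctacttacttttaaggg
Psmb11: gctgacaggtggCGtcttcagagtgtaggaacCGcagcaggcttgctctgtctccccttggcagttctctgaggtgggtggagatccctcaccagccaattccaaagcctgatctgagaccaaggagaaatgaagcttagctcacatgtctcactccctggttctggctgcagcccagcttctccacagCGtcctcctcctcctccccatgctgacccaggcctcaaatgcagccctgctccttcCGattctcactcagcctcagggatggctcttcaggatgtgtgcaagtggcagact

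RefSeq windows were matched for 41 of the 49 members (44 windows), and their median was 19 CpGs, against 7 over all 32851 windows (quartiles 3 and 20). The 20S alpha ring windows had a median of 22.5, the 19S base 21 and the 19S lid 21, and the 4 windows of tissue-specific 20S genes had 7.5. The letters TGACNNNGC, the core of the element bound by NRF1 and NRF2, were found on either strand in 6 of 44 member windows (13.6%) and in 12.4% of all windows. The members with it were Psmb5, Psmb6, Psmc6, Psmd12, Psme4 and Psmd9. An E2F-like GCGGGAA was in 5 of 44 member windows (11.4%), Psme1 among them, against 4.60% of all windows, and the E-box CACGTG in 4 of 44 (9.09%), Psmb10 among them, against 7.15%. Both motifs hold a CpG, and the windows compared were not matched for CpG content. No window held overlapping matches of 2 of these motifs. A match describes letters and is not evidence of binding.

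Values are TPM, which scale for gene length, give transcripts as shares and add up to the same total in every library, so the read depth behind a value is unknown. A TPM is therefore a share of the library's RNA and not an amount per oocyte. Eed stood at 88.9 and 90.5 TPM in control and 12.1 and 10.3 in cKO non-growing libraries, and at 62.3 and 60.5 in control and 9.64 and 10.1 in cKO growing libraries. Ring1 was at most 0.02 TPM in the PRC1 table. Rnf2 was not lower in the libraries labelled PRC1 cKO (87.8 and 61.4 TPM) than in their controls (59.2 and 53.8), so its total does not check that label. In growing oocytes 20.9 to 25.9% of TPM in the PRC2 and PRC1 control and PRC2 cKO libraries lay in gene models of the class TEC (models awaiting experimental support), against 2.26 to 2.58% in non-growing libraries and 11.1 and 14.9% in the PRC1 cKO. All 10 oocyte markers, such as Ddx4, Zp3 and Gdf9, were detected in all 12 libraries, and their summed level was 5358 to 18521 TPM. The 8 granulosa markers summed to 2.47 to 5.38 TPM in 10 libraries and to 31.4 and 19.5 TPM in the PRC1 cKO.

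The 14 constitutive 20S genes and 17 core 19S genes were among the well expressed transcripts of these oocytes. Apart from Psmd3, each was at 42.8 TPM or more in every library, and the highest, Psmb6, which encodes the subunit with the caspase-like site, reached 1623 TPM. The genes of the barrel were not at one level: within a library, the highest 20S gene exceeded the lowest by 5.32 to 13.4 times, although the assembled barrel holds its subunits in equal number. In PRC2 control non-growing oocytes the order of 20S genes began with Psmb6 at 1359.6 and 1363 TPM, then Psmb2 at 1026 and 1076 and Psma7 at 917 and 904, and these neighbours did not overlap. It ended with Psmb5 (157 and 170.4), Psma5 (149 and 155) and Psma1 (128 and 132), each a short step below the last and without overlap. In the cap the highest was Psmd4, a ubiquitin receptor, at 978 and 1027 TPM, and the lowest was the lid gene Psmd3 at 21.4 and 26.1. Chaperones lay between 48.8 and 271 TPM in the same libraries.

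Psmb8, Psmb9 and Psme2b were too low to test. Psmb8 was listed between 0 and 0.27 TPM, Psmb9 between 0 and 1.51 and Psme2b between 0.17 and 1.13 across the 12 libraries. Psme2b is a near copy of Psme2, so reads may be split between them, and it also lies within Gm12185 on the same strand. No source used here says whether reads were counted by strand, and some members overlap another gene. Psma2 shares 8943 bases with AW209491 on its own strand, while Psmb7 overlaps Nek6 on the other strand and Psmc3 overlaps Slc39a13 there. Psmd13 shares 342 bases with Sirt3 on the other strand.

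**Figure D1:**
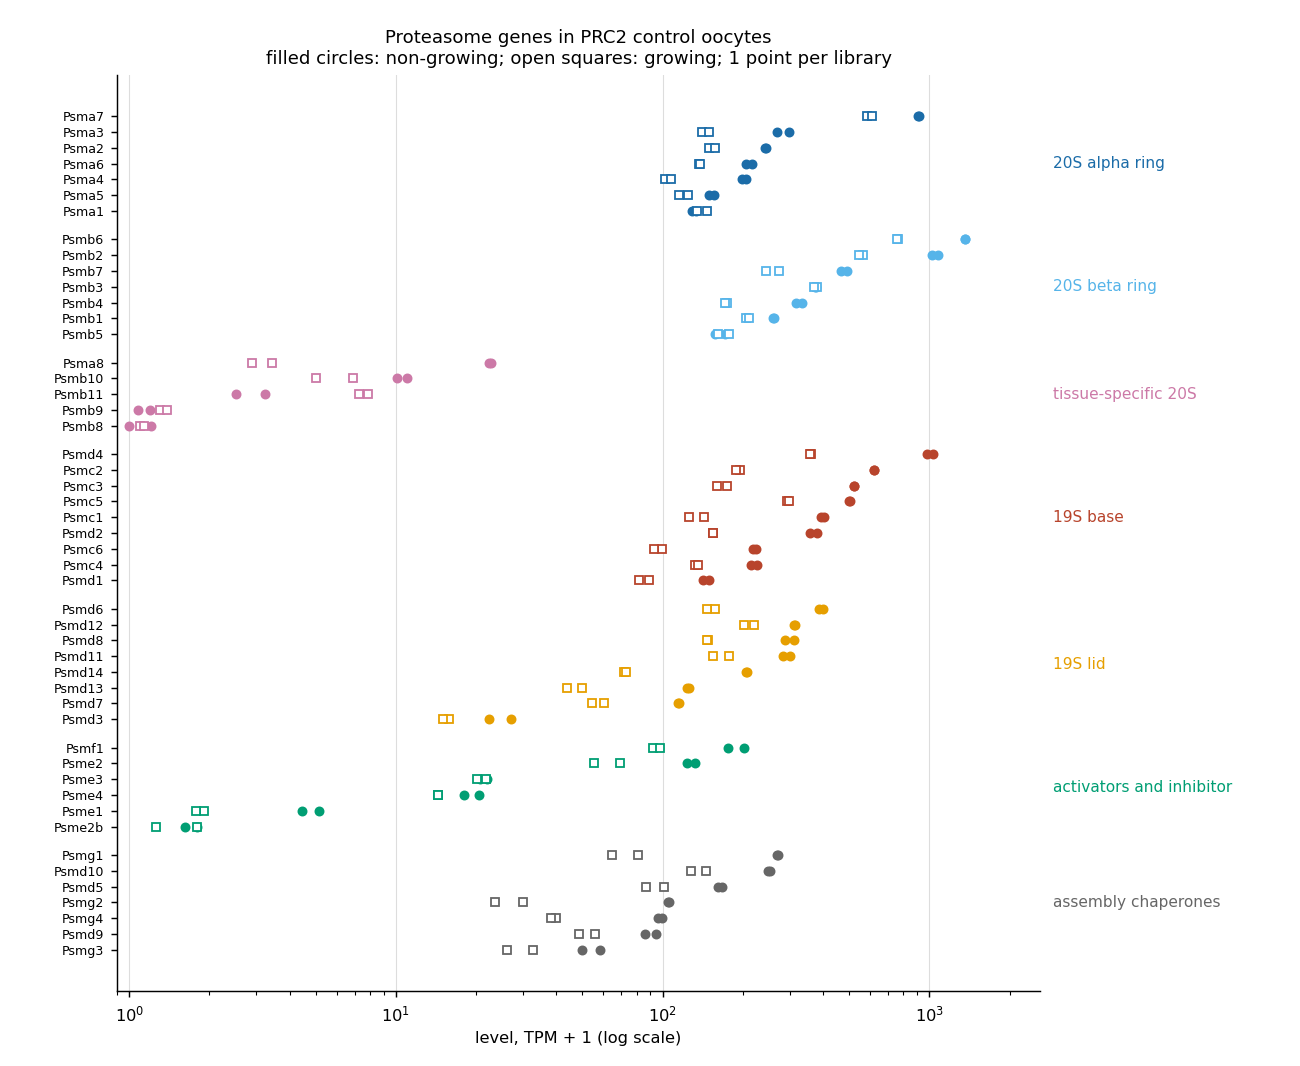
Level of each of the 49 members (rows, grouped by role) as TPM + 1 on a log axis, in the 2 control non-growing libraries (filled circles) and the 2 control growing libraries (open squares) of the PRC2 table. Most squares lie left of their circles; Psmb11 is the member with both squares to the right by the widest gap, and the constitutive core lies above 42.8 TPM except Psmd3.

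Growing oocytes were compared with non-growing oocytes in each PRC2 genotype, which asks how the system stands at the onset of growth. As a share of RNA, 40 of 46 tested members were lower in growing control oocytes and 1 was higher (limma on log2(TPM + 1), Benjamini-Hochberg adjusted p under 0.05), while 54.0% of the 14153 genes tested were lower and 16.6% higher. The log2 change of the median member was -0.88 and that of the median tested gene -0.67. In cKO oocytes the same counts were 40 and 1, against 46.0% and 20.1% of tested genes, with medians of -0.90 and -0.45. In both genotypes 39 members were lower and 1, Psmb11, higher, and the share of all genes called in both is not given here. In bulk libraries fewer cells of a type and less RNA per cell cannot be told apart. All 49 members together made up 1.32 to 1.37% of TPM in the 4 non-growing libraries and 0.675 to 0.703% in the 4 growing ones. Among nuclear protein-coding TPM alone the shares were 1.54 to 1.64% and 1.09 to 1.20%, still without overlap.

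The number of members called depended on the scaling. In control oocytes, scaling to nuclear protein-coding TPM gave 31 lower and 5 higher members, where 38.7% and 23.3% of genes were called. Quantile normalization gave 22 and 7, with 36.1% and 24.9% of genes, and trimmed-mean scaling 15 and 6, with 29.8% and 28.0%. In cKO oocytes the corresponding members were 28 and 5 (32.3% and 28.8% of genes), 23 and 6 (37.9% and 25.8%), and 26 and 5 (32.4% and 28.9%). Under these 3 scalings the median of all genes in control oocytes was -0.31, -0.22 and -0.09, and the median member -0.41, -0.29 and -0.16. There were 16 members lower or higher under every scaling in control oocytes: Psma8, Psmb11, Psmc1, Psmc2, Psmc3, Psmc6, Psmd2, Psmd4, Psmd6, Psmd8, Psmd13, Psmd14, Psme1, Psmg1, Psmg2 and Psmg4. Of these Psmb11 was the higher one, and 10 encode parts of the 19S cap while none is a constitutive 20S gene. In cKO oocytes 23 were called under every scaling, and 5 of them, Psma4, Psmb2, Psmb4, Psmb6 and Psmb7, are constitutive 20S genes. The share of all genes called under every scaling is not given here, so these counts have no background beside them.

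The 20S alpha ring forms the gated ends of the barrel, and 6 of its 7 genes were lower in growing control oocytes, with log2 changes of -0.97 to 0.10. Growth counts for this ring and the parts below stand beside 54.0% of all genes lower in control and 46.0% in cKO oocytes. Psma3 went from 296 and 268 TPM in control non-growing and 311 and 278 in cKO non-growing oocytes to 139.5 and 148 in control growing and 159 and 144 in cKO growing oocytes. Psma4 went from 198 and 204 TPM in control non-growing and 204 and 208 in cKO non-growing oocytes to 101 and 106 in control growing and 100.4 and 103 in cKO growing oocytes. Psma2 was at 240.2 and 242 TPM in control non-growing and 253 and 235 in cKO non-growing oocytes, and 149 and 156 in control growing and 149.6 and 136 in cKO growing oocytes. For each of these 3 genes every growing library lay below every non-growing library. Here and below, the share of all genes whose libraries lie apart with growth or in the PRC1 comparison is not given. Such statements therefore describe single genes only.

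Psma7, the highest of the ring, was at 917 and 904 TPM in control non-growing and 884 and 868 in cKO non-growing oocytes, and 581 and 611 in control growing and 592 and 559.9 in cKO growing oocytes. Psma6 stood at 205 and 215 TPM in control non-growing and 237 and 219 in cKO non-growing oocytes, and 136 and 137 in control growing and 139.8 and 127 in cKO growing oocytes. Psma5 was at 149 and 155 TPM in control non-growing and 185 and 169 in cKO non-growing oocytes, and 114 and 123 in control growing and 118 and 111 in cKO growing oocytes. Their log2 changes in control oocytes were -0.61, -0.62 and -0.35, and all 3 were above 0 under trimmed-mean scaling, as was that of Psma2. The call of Psma5 ended without control growing replicate 1 or control non-growing replicate 2, with adjusted p of 0.0559 to 0.0728. Psma1 was the exception in the ring, at 128 and 132 TPM in control non-growing and 146 and 119 in cKO non-growing oocytes, and 133 and 145 in control growing and 125 and 126 in cKO growing oocytes, and did not pass in either genotype (adjusted p = 0.469 and 0.616).

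The beta ring carries the cutting sites, and 5 of its 7 genes were lower in growing control oocytes and 6 of 7 in cKO oocytes. Psmb6 went from 1359.6 and 1363 TPM in control non-growing and 1623 and 1588 in cKO non-growing oocytes to 763 and 755 in control growing and 782 and 634 in cKO growing oocytes. Psmb2, which has no cutting site of its own, went from 1026 and 1076 TPM in control non-growing and 988 and 991 in cKO non-growing oocytes to 565 and 542 in control growing and 562 and 497 in cKO growing oocytes. Psmb7, with the trypsin-like site, went from 465 and 489 TPM in control non-growing and 446 and 441 in cKO non-growing oocytes to 273 and 244 in control growing and 237 and 230.5 in cKO growing oocytes. Growing and non-growing libraries were apart for all 3, and their log2 changes in control oocytes were -0.84, -0.92 and -0.89.

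Psmb4 went from 316 and 332 TPM in control non-growing and 337 and 306 in cKO non-growing oocytes to 174 and 171 in control growing and 164 and 145 in cKO growing oocytes. Psmb1 was at 261 and 259 TPM in control non-growing and 313 and 285 in cKO non-growing oocytes, and 204 and 209 in control growing and 201 and 172 in cKO growing oocytes. Its change of -0.33 in control oocytes (adjusted p = 0.0196) was among the smallest that passed, and it did not pass when any of the 4 control libraries was left out (adjusted p = 0.0556 to 0.087). Psmb3 was at 374 and 371 TPM in control non-growing and 426 and 381 in cKO non-growing oocytes, and 379.5 and 369 in control growing and 346 and 329 in cKO growing oocytes, lower with growth in cKO oocytes (adjusted p = 0.0261) but not in control oocytes (adjusted p = 0.945). Its call in cKO oocytes ended without any of cKO growing replicate 2, cKO non-growing replicate 1 and the 2 control non-growing libraries (adjusted p = 0.0576 to 0.144), and under the 3 scalings its change was above 0. Psmb5, with the chymotrypsin-like site that proteasome inhibitors block, was at 157 and 170.4 TPM in control non-growing and 191 and 208 in cKO non-growing oocytes, and 159.8 and 177 in control growing and 208 and 251 in cKO growing oocytes. Its log2 changes of 0.04 in control and 0.20 in cKO oocytes did not pass.

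The 19S base holds the ATPase ring and the ubiquitin receptors, and all 9 of its genes were lower in growing oocytes of both genotypes. Psmc2 had the largest fall of the core, from 621 and 620.0 TPM in control non-growing and 696 and 703 in cKO non-growing oocytes to 195 and 187 in control growing and 188 and 168 in cKO growing oocytes (log2 change -1.70, SE 0.08, adjusted p = 9.33e-06 in control oocytes). Psmc3 went from 523 and 521 TPM in control non-growing and 536 and 564 in cKO non-growing oocytes to 174 and 159 in control growing and 182 and 155 in cKO growing oocytes. Psmc1 went from 393 and 403 TPM in control non-growing and 363 and 368 in cKO non-growing oocytes to 142 and 124 in control growing and 136 and 143 in cKO growing oocytes. No growing library reached a non-growing one for these 3 ATPases, which lay between 124 and 195 TPM in the 4 growing libraries.

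Psmc6 went from 216 and 222 TPM in control non-growing and 252 and 248 in cKO non-growing oocytes to 98.2 and 92 in control growing and 97.2 and 95.3 in cKO growing oocytes. Psmc5 was at 504 and 501 TPM in control non-growing and 529 and 552 in cKO non-growing oocytes, and 291 and 297 in control growing and 280.5 and 259.5 in cKO growing oocytes. Psmc4 was at 213 and 224 TPM in control non-growing and 219 and 224 in cKO non-growing oocytes, and 131 and 135 in control growing and 130.3 and 134 in cKO growing oocytes. The 6 ATPases are present once each in the cap, yet their genes differed in log2 change, from -0.71 for Psmc4 to -1.70 for Psmc2 in control oocytes.

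Psmd4 went from 978 and 1027 TPM in control non-growing and 849 and 966 in cKO non-growing oocytes to 359 and 356 in control growing and 359.6 and 375 in cKO growing oocytes. Psmd2, which encodes a scaffold that binds ubiquitin-like domains, was at 357 and 377 TPM in control non-growing and 276 and 350.5 in cKO non-growing oocytes, and 153 and 154 in control growing and 170.0 and 212 in cKO growing oocytes. Psmd1, its partner scaffold, was at 141 and 148 TPM in control non-growing and 129 and 129 in cKO non-growing oocytes, and 80.7 and 88 in control growing and 78.1 and 92 in cKO growing oocytes. All 3 were lower in every growing library than in every non-growing one, with log2 changes of -1.49, -1.25 and -0.77 in control oocytes.

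The 19S lid removes the ubiquitin chain, and 7 of its 8 genes were lower with growth in each genotype. Psmd14, the metalloprotease that cuts the chain, went from 206 and 205 TPM in control non-growing and 290.3 and 249 in cKO non-growing oocytes to 70.6 and 72.1 in control growing and 81.5 and 69.9 in cKO growing oocytes (log2 change -1.51, SE 0.11, adjusted p = 3.93e-05 in control oocytes). Psmd13 went from 124 and 122 TPM in control non-growing and 126 and 132 in cKO non-growing oocytes to 49 and 42.8 in control growing and 49.6 and 54.5 in cKO growing oocytes. Psmd6 went from 385 and 398 TPM in control non-growing and 397 and 396 in cKO non-growing oocytes to 156 and 145 in control growing and 159.9 and 145 in cKO growing oocytes. Their log2 changes in control oocytes were all below -1, and no growing library reached a non-growing one.

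Psmd7, the inactive partner of Psmd14, went from 114 and 114 TPM in control non-growing and 127 and 130.5 in cKO non-growing oocytes to 59.1 and 53.4 in control growing and 62.2 and 56.7 in cKO growing oocytes. Psmd8 was at 286 and 309 TPM in control non-growing and 259 and 273 in cKO non-growing oocytes, and 147 and 145 in control growing and 148 and 167 in cKO growing oocytes. Psmd11 was at 300.2 and 283 TPM in control non-growing and 314 and 299.5 in cKO non-growing oocytes, and 154 and 177 in control growing and 164 and 171 in cKO growing oocytes. These genes also fell without overlap, with log2 changes of -1.01, -1.02 and -0.82 in control oocytes.

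Psmd12 was at 314 and 310.1 TPM in control non-growing and 359 and 347 in cKO non-growing oocytes, and 201 and 219 in control growing and 196 and 190.1 in cKO growing oocytes. It had the smallest fall of the core 19S genes that passed in control oocytes, -0.57. Psmd3 was the lowest and the least even of the core, at 21.4 and 26.1 TPM in control non-growing and 10.4 and 18.4 in cKO non-growing oocytes, and 14.8 and 14 in control growing and 15 and 35.8 in cKO growing oocytes, and passed in neither genotype (adjusted p = 0.175 and 0.168).

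Genes of the cap fell more than those of the barrel, as a description that no test compares. The median log2 change of core 19S genes in control oocytes was -1.20 and that of core 20S genes -0.64, and in cKO oocytes -1.10 and -0.77. Because both are read from the same library, their ratio does not depend on what else the library holds. The mean 19S gene was at 0.770 and 0.774 of the mean 20S gene in control non-growing libraries and at 0.526 and 0.521 in control growing libraries. The cKO libraries gave 0.722 and 0.779 in non-growing and 0.530 and 0.583 in growing oocytes, so the 4 growing libraries lay below the 4 non-growing ones. With medians over genes in place of means, an alternative chosen after seeing the data, the ratios were 1.08 and 1.17 against 0.878 and 0.836 in control and 0.931 and 1.06 against 0.813 and 0.913 in cKO oocytes, again without overlap. The 19S median stayed below the 20S median under each scaling in control oocytes: -0.71 against -0.15 with protein-coding scaling, -0.54 against -0.07 with quantile normalization and -0.45 against 0.11 with trimmed-mean scaling, where the 20S median was above 0.

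**Figure D2:**
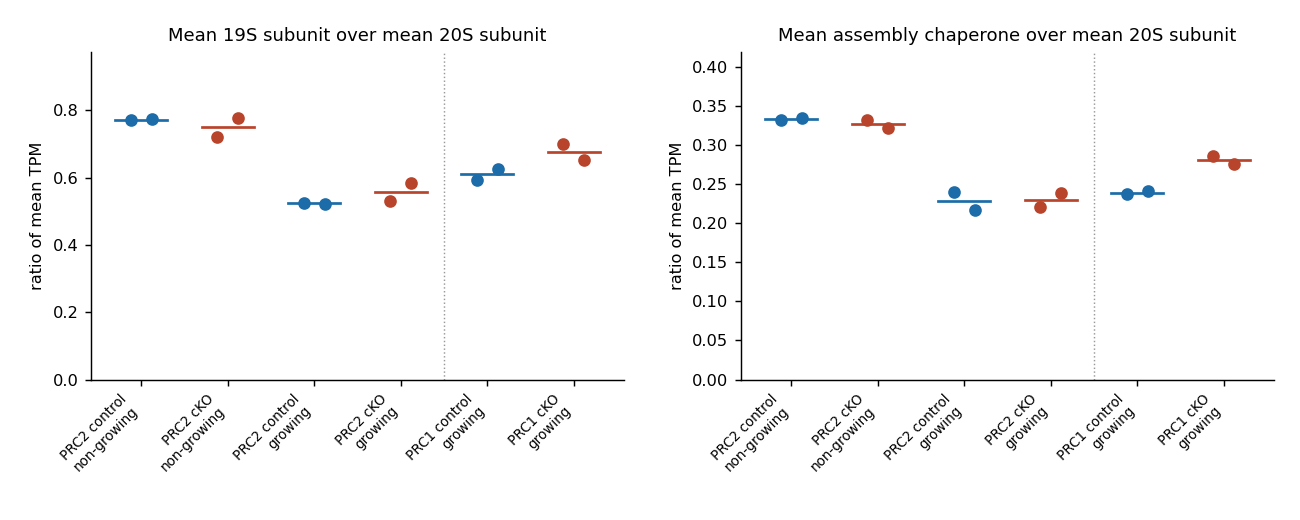
Ratio of the mean TPM of 17 core 19S genes (left) and of 7 assembly chaperones (right) to the mean TPM of 14 core 20S genes, with 1 point per library, the group mean as a horizontal line and the PRC1 table right of the dotted line. The left ratio lies at 0.722 to 0.779 in non-growing and 0.521 to 0.583 in growing PRC2 libraries, and the right ratio at 0.322 to 0.335 and 0.217 to 0.240.

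Assembly chaperones bind unfinished rings and leave the mature particle. All 7 were lower in growing control oocytes and 6 of 7 in growing cKO oocytes, and their mean over the mean 20S gene went from 0.322 to 0.335 in the 4 non-growing libraries to 0.217 to 0.240 in the growing ones. Psmg1 and Psmg2, which work as a pair on the alpha ring, fell most. Psmg1 went from 268 and 271 TPM in control non-growing and 323 and 278 in cKO non-growing oocytes to 80.1 and 63.6 in control growing and 63.9 and 59.5 in cKO growing oocytes. Psmg2 went from 104 and 104 TPM in control non-growing and 122 and 114 in cKO non-growing oocytes to 28.9 and 22.5 in control growing and 24.7 and 22.9 in cKO growing oocytes. Their log2 changes in control oocytes were -1.90 (SE 0.13, adjusted p = 3.09e-05) and -1.99 (SE 0.13, adjusted p = 2.74e-05).

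Psmg3 and Psmg4 form the second pair. Psmg4 went from 94.8 and 98.3 TPM in control non-growing and 85.7 and 81.3 in cKO non-growing oocytes to 39 and 37.1 in control growing and 37.6 and 36.9 in cKO growing oocytes. Psmg3 was at 48.8 and 57.2 TPM in control non-growing and 45.6 and 38.8 in cKO non-growing oocytes, and 31.8 and 25.1 in control growing and 33.1 and 32.7 in cKO growing oocytes, lower in control oocytes (adjusted p = 0.00195) while cKO oocytes gave 0.0879. Psmg3 overlaps Gm26938 on the same strand, so reads of that model may enter its value.

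The chaperones of the 19S base changed less than Psmg1, Psmg2 and Psmg4. Psmd10, also known as gankyrin, went from 247 and 251 TPM in control non-growing and 266 and 243 in cKO non-growing oocytes to 144 and 127 in control growing and 122 and 114 in cKO growing oocytes. Psmd5 was at 166 and 159.9 TPM in control non-growing and 166 and 183 in cKO non-growing oocytes, and 85.4 and 100.5 in control growing and 98.2 and 107 in cKO growing oocytes. Psmd9 was at 85 and 93.7 TPM in control non-growing and 75.7 and 75.8 in cKO non-growing oocytes, and 54.8 and 47.6 in control growing and 48 and 51.7 in cKO growing oocytes. Their log2 changes in control oocytes ran from -0.87 to -0.79, and growing and non-growing libraries did not overlap.

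Among activators, Psme1 and Psme2 encode the PA28 ring that interferon induces in other cells. Psme2 went from 131 and 123 TPM in control non-growing and 131 and 123 in cKO non-growing oocytes to 68.5 and 54.2 in control growing and 53.6 and 55 in cKO growing oocytes. Psme1 was far lower, at 3.44 and 4.13 TPM in control non-growing and 3.36 and 2.45 in cKO non-growing oocytes, and 0.90 and 0.78 in control growing and 0.69 and 0.57 in cKO growing oocytes, although the ring is built of both proteins. Psme1 amounted to 2.00 to 3.36% of Psme2 in non-growing and 1.04 to 1.44% in growing PRC2 libraries. The 2 genes lie 5911 bases apart on chromosome 14, on opposite strands.

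Psme4, which encodes the PA200 cap of nuclear proteasomes, was at 19.4 and 17 TPM in control non-growing and 24.3 and 19.9 in cKO non-growing oocytes, and 13.3 and 13.4 in control growing and 12.4 and 11.1 in cKO growing oocytes. Its change of -0.42 in control oocytes (adjusted p = 0.0367) did not pass when any of the 4 control libraries was left out (adjusted p = 0.0696 to 0.197), and was above 0 under the 3 scalings. Psme3, the nuclear PA28 activator, passed in neither genotype, at 19.7 and 20.9 TPM in control non-growing and 15.3 and 18.4 in cKO non-growing oocytes, and 20.8 and 19.2 in control growing and 19.3 and 21 in cKO growing oocytes. Psmf1, the inhibitor PI31, was at 176 and 201 TPM in control non-growing and 177 and 186 in cKO non-growing oocytes, and 90.8 and 97 in control growing and 113 and 133 in cKO growing oocytes. It was lower with growth in both genotypes, with log2 changes of -0.99 in control and -0.56 in cKO oocytes.

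Among tissue-specific 20S genes, Psma8 had the largest fall of all members. It went from 21.7 and 21.3 TPM in control non-growing and 22.1 and 21.3 in cKO non-growing oocytes to 2.43 and 1.88 in control growing and 3.39 and 3.13 in cKO growing oocytes (log2 change -2.84, SE 0.15, adjusted p = 1.25e-05 in control oocytes). Relative to Psma7, whose place it takes in spermatocytes, Psma8 went from 2.36 to 2.50% in non-growing to 0.308 to 0.573% in growing libraries. Psmb11 was the member that rose, at 1.51 and 2.22 TPM in control non-growing and 1.02 and 2.92 in cKO non-growing oocytes, and 6.88 and 6.28 in control growing and 5.51 and 6.06 in cKO growing oocytes (log2 change 1.41, SE 0.32, adjusted p = 0.006 in control oocytes). It amounted to 0.535 to 1.40% of Psmb5 in non-growing and 2.42 to 4.31% in growing libraries. Psmb11 and Psmb5 lie 3410 bases apart on opposite strands. The RefSeq start shown above lies inside the longer GENCODE model of Psmb11, and a gene-level TPM does not tell which part of the model the reads came from.

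Psmb10 was at 9.97 and 9.13 TPM in control non-growing and 7.46 and 12.2 in cKO non-growing oocytes, and 4.01 and 5.92 in control growing and 5.32 and 4.07 in cKO growing oocytes. Its fall passed in both genotypes (adjusted p = 0.0269 and 0.0219) but not under any of the 3 scalings. It also ended without each of 3 libraries in control and 2 in cKO oocytes (adjusted p = 0.0781 to 0.144 and 0.0926 to 0.12). Against Psmb7, which it replaces in the immunoproteasome, it stood at 1.67 to 2.76% in non-growing and 1.47 to 2.43% in growing libraries, which overlap.

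Loss of Eed was compared with its control at each stage. No member passed in non-growing oocytes, where 0.311% of genes did, and the lowest adjusted p of a member was 0.199. At an unadjusted p under 0.05 there were 4 members (Psma5, Psmb5, Psmc6 and Psmd14) of 46, and 16.4% of all genes. The median member was 0.02 higher on the log2 scale and the median gene 0.09 lower, and 30 of 31 core genes differed by less than 0.5. In growing oocytes no member passed either, with 0.170% of genes called and a lowest member adjusted p of 0.327. There 3 members (Psmb5, Psmf1 and Psma8) had an unadjusted p under 0.05, against 9.94% of genes, and again 30 of 31 core genes differed by less than 0.5. The share of all genes that differed by less than 0.5 is not given here for either stage, so the core counts have no background beside them.

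Psmd14 had the largest positive difference in non-growing cKO oocytes, with 290.3 and 249 TPM against 206 and 205 in control (log2 change 0.39, SE 0.11, adjusted p = 0.199). Psmb5 followed at 0.28 and Psme4 at 0.26. The largest negative differences were those of Psmd3 (-0.73), Psmg3 (-0.32) and Psme1 (-0.30), none of which passed. In growing oocytes the largest positive differences were those of Psmd3 (0.66), Psmb5 (0.44) and Psma8 (0.44), and the largest negative ones those of Psmg1 (-0.21), Psmd10 (-0.19) and Psme1 (-0.17), again without a call. Psmb5 was higher in cKO than in control libraries without overlap at both stages, and its adjusted p values were 0.301 and 0.327. Psma8 in growing oocytes stood at 3.39 and 3.13 TPM in cKO and 2.43 and 1.88 in control libraries, which do not overlap.

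The change of the cKO effect between stages was tested as an interaction. No member passed, 0.0989% of genes did, and the lowest adjusted p of a member was 0.305. At an unadjusted p under 0.05 there were 8 members and 15.8% of genes. The largest differences were those of Psmd3 (1.39), Psmd2 (0.55) and Psmg3 (0.54) upwards and Psme4 (-0.43), Psmg1 (-0.36) and Psmb1 (-0.35) downwards. Psmd3 stood at 21.4 and 26.1 TPM in control and 10.4 and 18.4 in cKO non-growing libraries, and at 14.8 and 14 in control and 15 and 35.8 in cKO growing libraries, where a single cKO library was high. Without that library, PRC2 cKO growing replicate 2, its log2 difference in growing oocytes was 0.06 and that between stages 0.79. Leaving out each library in turn, the difference between stages ranged from 0.37 to 0.72 for Psmd2, 0.37 to 0.70 for Psmg3, -0.57 to -0.30 for Psme4, -0.53 to -0.20 for Psmg1 (the latter without PRC2 control growing replicate 1) and -0.46 to -0.24 for Psmb1. Without PRC2 cKO growing replicate 1, Psmb6 passed as lower in the growing stage (adjusted p = 0.0395). These results rest on 2 libraries a group and do not show that the genotypes act alike.

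**Figure D3:**
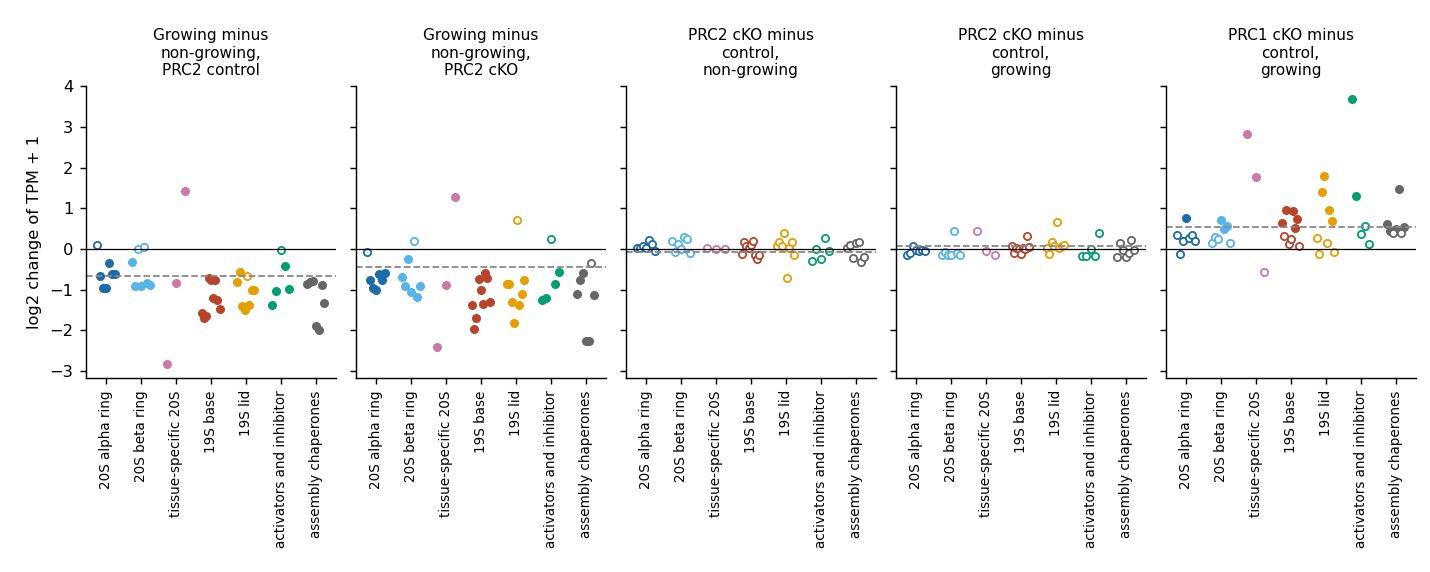
Log2 change of TPM + 1 for the 46 tested members (1 point each, by role) in 5 comparisons; filled points passed at an adjusted p under 0.05 and dashed lines mark the median of all genes tested. With growth most points lie below 0 and the 19S and chaperone points reach lower than the 20S points, with PRC2 loss all points are open, and with the PRC1 cKO label 22 are filled and above 0.

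Growing oocytes labelled PRC1 cKO were compared with their Ring1-/- controls. Of 46 tested members 22 were higher in the libraries labelled PRC1 cKO and none lower, while 41.3% of the 14941 genes tested were higher and 6.45% lower. The median member was 0.41 higher on the log2 scale, and the median gene 0.55. Their share of TPM was 0.680 and 0.726% in control and 0.948 and 0.937% in cKO libraries, and of nuclear protein-coding TPM 1.13 and 1.15% against 1.26 and 1.33%. Protein-coding scaling gave 13 higher and 1 lower member (33.8% and 10.1% of genes), quantile normalization 11 and 3 (18.2% and 17.6%), and trimmed-mean scaling 7 and 11 (21.2% and 23.3%), with the median member at -0.32. Leaving out any 1 library gave fewer higher members and also fewer higher genes. The median member was at 0.35 without PRC1 control replicate 1 and 0.49 without control replicate 2. It was at 0.37 without cKO replicate 1 and 0.43 without cKO replicate 2. The median gene was at 0.49, 0.63, 0.32 and 0.53 in the same order. Psma8, Psmb10, Psmd13, Psmd14, Psme1, Psme2 and Psmg2 were higher under every scaling and left-out library in which they could be tested. The share of all genes that held in this way is not given here, so these members have no background beside them. The other 15 lost their call under trimmed-mean scaling, and 12 of them also without at least 1 library. Without PRC1 control replicate 1 the calls of all 12 ended: adjusted p was 0.112 for Psma4, 0.11 for Psmb4, 0.107 for Psmd2 and at most 0.259 for the others (Psmb5, Psmb6, Psmc1, Psmd1, Psmd5, Psmd7, Psmd10, Psmg1 and Psmg4). The calls of Psmg1 and Psmd5 ended without any 1 of the 4 libraries (adjusted p = 0.0818 to 0.225 and 0.0903 to 0.239).

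Psme1 changed most, at 0.70 and 0.52 TPM in control libraries and 24.9 and 15.5 in cKO libraries (log2 change 3.69, SE 0.29, adjusted p = 0.00229). Its partner Psme2 was at 58.5 and 59.7 TPM in control libraries and 142 and 153 in cKO libraries (log2 change 1.3, SE 0.13, adjusted p = 0.00295). Both cKO libraries lay above both controls for each gene, and Psme1 went from 1.20 and 0.871% of Psme2 to 17.5 and 10.2%. Psme1 was too low to test when either cKO library was left out, because it then reached 1 TPM in a single library.

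Psma8 was at 2.30 and 3.12 TPM in control libraries and 28.6 and 22 in cKO libraries (log2 change 2.82, SE 0.25, adjusted p = 0.00251). Against Psma7 it stood at 0.379 and 0.499% in control and 4.15 and 3.11% in cKO libraries, without overlap. Psmb10 was at 4.97 and 4.30 TPM in control libraries and 19 and 17.6 in cKO libraries (log2 change 1.78, adjusted p = 0.00381), or 1.88 and 1.57% against 5.86 and 6.41% of Psmb7. The other immunoproteasome genes were low: Psmb8 was at 0.07 and 0.21 TPM in control libraries and 0.15 and 0.27 in cKO libraries and Psmb9 at 0.09 and 0.50 TPM in control libraries and 1.51 and 0.84 in cKO libraries.

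Psmb11 lay the other way, at 10.6 and 11.2 TPM in control libraries and 6.27 and 7.99 in cKO libraries (log2 change -0.56, SE 0.22, adjusted p = 0.0911). It did not pass as deposited, and it was called lower under protein-coding, quantile and trimmed-mean scaling, with log2 changes of -0.80, -1.20 and -1.22. As a share of Psmb5 it stood at 9.35 and 9.0% in control and 3.58 and 5.06% in cKO libraries, without overlap.

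**Figure D4:**
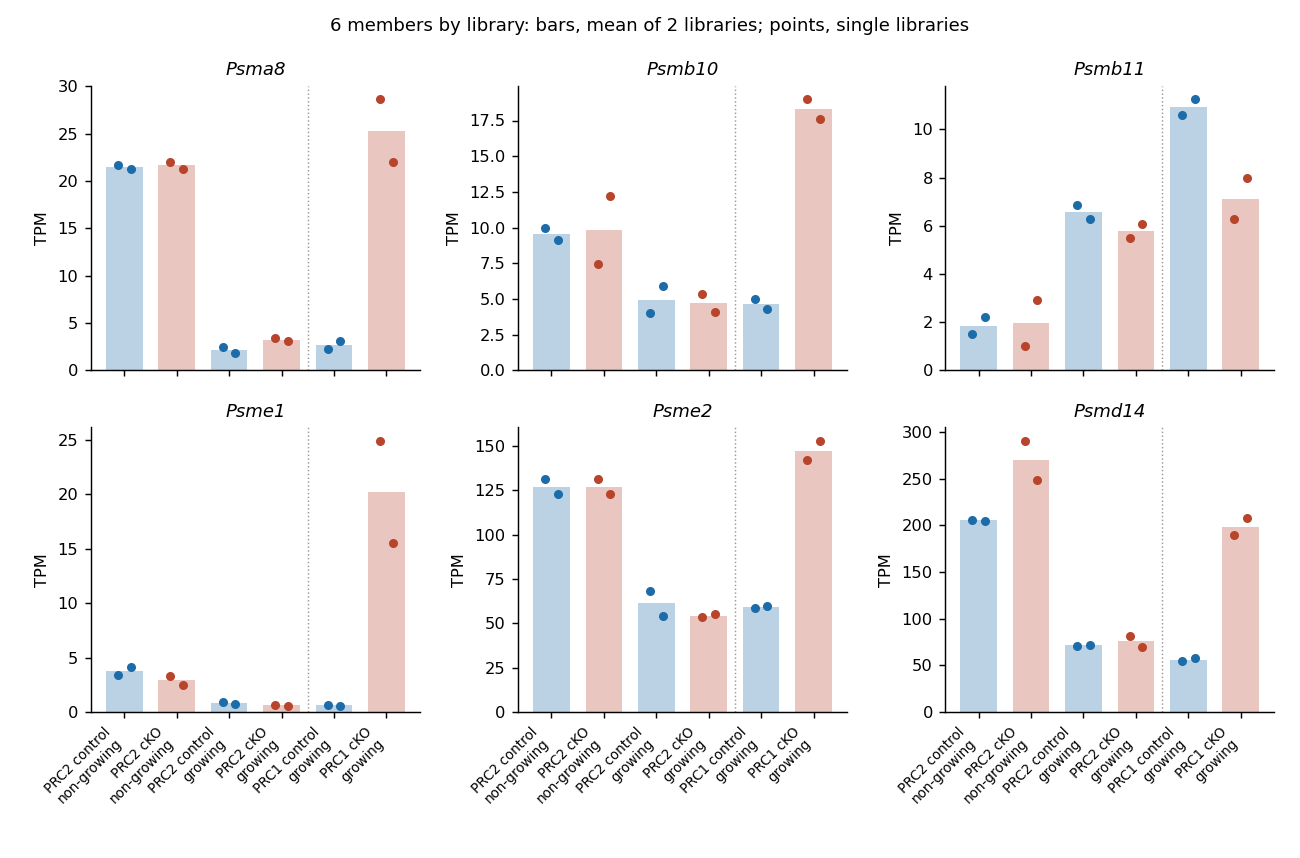
TPM of Psma8, Psmb10, Psmb11, Psme1, Psme2 and Psmd14 in each of 12 libraries (points) with the mean of each group of 2 (bars); the PRC1 table lies right of the dotted line and was normalized apart from the PRC2 table. Psma8, Psmb10, Psme1, Psme2 and Psmd14 are lower in growing than in non-growing PRC2 control libraries and higher in PRC1 cKO than in PRC1 control libraries, and Psmb11 goes the opposite way in both.

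In the 19S lid 4 of 8 genes were higher, beside 41.3% of all genes tested. Psmd14 was at 54.5 and 58.1 TPM in control libraries and 189.8 and 207 in cKO libraries (log2 change 1.80, SE 0.13, adjusted p = 0.00219). Psmd13 was at 53.9 and 62.8 TPM in control libraries and 173 and 138 in cKO libraries (log2 change 1.40, adjusted p = 0.00444). Psmd6 was at 135 and 152 TPM in control libraries and 291 and 265 in cKO libraries. For these 3 genes both cKO libraries lay above both controls.

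Psmd7 was at 63 and 78.3 TPM in control libraries and 123 and 104 in cKO libraries and passed with an adjusted p of 0.0285. Psmd11 was at 158 and 166 TPM in control libraries and 195 and 193 in cKO libraries. Psmd8 was at 188 and 220.4 TPM in control libraries and 195 and 188 in cKO libraries. Neither Psmd11 nor Psmd8 passed, and Psmd8 overlapped between genotypes. Psmd12 was at 207 and 211 TPM in control libraries and 183 and 199 in cKO libraries and Psmd3 at 37.2 and 52 TPM in control libraries and 62.8 and 37.6 in cKO libraries, with log2 changes of -0.13 and 0.14 that did not pass.

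In the 19S base 5 of 9 genes were higher, beside 41.3% of all genes tested. Psmc3 was at 161 and 179 TPM in control libraries and 333 and 331 in cKO libraries. Psmc6 was at 96.1 and 99 TPM in control libraries and 195 and 179.7 in cKO libraries. Psmd2 was at 188 and 223 TPM in control libraries and 376 and 315 in cKO libraries. Psmc3 and Psmc6 kept their call with each library left out and lost it under trimmed-mean scaling.

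Psmc1 was at 138 and 148 TPM in control libraries and 247 and 202 in cKO libraries. Psmd1 was at 105 and 119.5 TPM in control libraries and 180.0 and 146 in cKO libraries, close to the threshold with an adjusted p of 0.0493. The other 4 base genes did not pass. Psmc2 was at 160.4 and 168 TPM in control libraries and 201 and 207 in cKO libraries and Psmc5 at 278 and 283 TPM in control libraries and 326 and 341 in cKO libraries, both without overlap, whereas Psmc4 at 163 and 181 TPM in control libraries and 194 and 180.2 in cKO libraries and Psmd4 at 389 and 432 TPM in control libraries and 412 and 444 in cKO libraries overlapped between genotypes.

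The barrel had the lowest median, 0.28 against 0.53 for core 19S genes and 0.55 for all genes tested. Of 14 constitutive 20S genes 4 were higher, beside 41.3% of all genes tested: Psma4, Psmb4, Psmb5 and Psmb6. Psma4 was at 100.05 and 122 TPM in control libraries and 203 and 172 in cKO libraries (log2 change 0.75, adjusted p = 0.0183). Psmb4 was at 162 and 180.4 TPM in control libraries and 312 and 251 in cKO libraries. Psmb6 was at 614 and 624 TPM in control libraries and 817 and 1007 in cKO libraries and Psmb5 at 114 and 125 TPM in control libraries and 175 and 158 in cKO libraries. None of these 4 calls held under trimmed-mean scaling, where Psmb4, Psmb5 and Psmb6 were below 0.

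The other 10 barrel genes had log2 changes of -0.14 to 0.34 and did not pass. Psma1 was at 129.6 and 138 TPM in control libraries and 172 and 167 in cKO libraries, Psma6 at 126 and 138 TPM in control libraries and 171 and 164 in cKO libraries and Psma5 at 114 and 121 TPM in control libraries and 139 and 146 in cKO libraries. Psma2, with the lowest log2 change of the ring, was at 163 and 162 TPM in control libraries and 151 and 145 in cKO libraries, with both cKO libraries below both controls. Psma3 was at 124 and 117 TPM in control libraries and 142 and 133 in cKO libraries and Psma7 at 607 and 625 TPM in control libraries and 690.4 and 708 in cKO libraries. In the beta ring Psmb1 was at 157 and 150.0 TPM in control libraries and 159.8 and 183 in cKO libraries, Psmb2 at 554 and 618 TPM in control libraries and 724 and 709 in cKO libraries, Psmb3 at 339 and 339 TPM in control libraries and 376 and 429 in cKO libraries and Psmb7 at 264 and 274 TPM in control libraries and 324 and 274 in cKO libraries, each higher in both cKO libraries, although the nearest Psmb7 libraries differ by less than 1 TPM. The mean 19S gene stood at 0.595 and 0.625 of the mean 20S gene in control and 0.701 and 0.652 in cKO libraries. By medians over genes this ratio was 0.992 and 1.07 against 1.03 and 1.12, which overlap.

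Of the chaperones 5 of 7 were higher, beside 41.3% of all genes tested. Psmg2 was at 19.2 and 25.6 TPM in control libraries and 69.8 and 56.8 in cKO libraries (log2 change 1.47, SE 0.21, adjusted p = 0.00596). Its partner Psmg1 was at 65.4 and 67.8 TPM in control libraries and 93.4 and 92.9 in cKO libraries (log2 change 0.48, adjusted p = 0.0326). Psmd10 was at 115 and 114 TPM in control libraries and 163 and 186 in cKO libraries.

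Psmd5 was at 91.8 and 92 TPM in control libraries and 125 and 123 in cKO libraries and Psmg4 at 40.7 and 44.5 TPM in control libraries and 67.8 and 56.4 in cKO libraries, both near the threshold (adjusted p = 0.0399 and 0.0481). Psmd9 was at 59.8 and 72.3 TPM in control libraries and 88.9 and 83 in cKO libraries and Psmg3 at 30.3 and 34.7 TPM in control libraries and 42.6 and 42.6 in cKO libraries, and neither passed. The chaperone mean over the 20S mean was 0.237 and 0.241 in control and 0.286 and 0.276 in cKO libraries. Among the other activators, Psme4 was at 11 and 10.4 TPM in control libraries and 15.9 and 16.8 in cKO libraries and Psme3 at 25.4 and 27.6 TPM in control libraries and 33.7 and 34.5 in cKO libraries, with adjusted p of 0.0543 and 0.116. The inhibitor Psmf1 was at 118 and 123 TPM in control libraries and 125 and 134 in cKO libraries, and Psme2b was listed at 0.17 and 0.29 TPM in control libraries and 0.51 and 1.13 in cKO libraries.

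Of the granulosa markers named above, the 3 that could be tested were called higher in the PRC1 cKO. Inha was at 17.2 and 10.9 TPM in cKO against 0.59 and 2.68 in control libraries. Kitl was at 7.78 and 4.95 against 1.22 and 0.86, and Gata4 at 1.88 and 1.43 against 0.40 and 0.43. Gata4 reached 1 TPM only in cKO libraries, and Inha and Kitl each in a single control library. Entry to the test thus favoured markers high in the cKO, and these calls are no support by themselves. The other 5 did not reach 1 TPM in 2 libraries and were not tested: Foxl2 was at 0 and 0 TPM in control libraries and 0.19 and 0.14 in cKO libraries, Amh at 0 and 0.05 TPM in control libraries and 0.24 and 0.04 in cKO libraries, Amhr2 at 0.08 and 0.52 TPM in control libraries and 2.76 and 0.57 in cKO libraries, Wt1 at 0.07 and 0.09 TPM in control libraries and 0.68 and 0.18 in cKO libraries and Fshr at 0.69 and 0.75 TPM in control libraries and 0.65 and 1.26 in cKO libraries. Both cKO libraries lay above both controls for Foxl2, Amhr2 and Wt1, and the genotypes overlapped for Amh and Fshr. Of the 8 granulosa markers 2 and 1 were at 0 in the controls and none in the cKO. Immune markers summed to 2.64 and 2.37 TPM in control and 5.42 and 4.31 in cKO, stromal markers to 0.14 and 0.48 against 1.66 and 4.41, and endothelial markers to 7.30 and 5.96 against 9.45 and 12. Their part in the changes of Psme1, Psme2 and Psmb10 was not tested. Of 10 oocyte markers 3 were called lower and 3 higher. Their median log2 change was 0.25, with 5 above 0 and 5 below 0. Bmp15 had the lowest change (-3.26), at 448 and 354 TPM in control and 22.1 and 74.2 in cKO libraries. Figla went the other way, at 282 and 382 TPM in control and 683 and 630 in cKO libraries.

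The growth change in PRC2 control oocytes and the PRC1 cKO change come from separate tables with no shared library. Across the 46 members Pearson's r between them was -0.57 and Spearman's rho -0.55, and 39 members had a change below 0 with growth and above 0 in the PRC1 cKO, as did 8210 of 13140 genes. Over the genes tested in both tables r was -0.56 and rho -0.57, close to the values of the members. Genes are not independent replicates and both measures carry the composition of their libraries, including the TEC share. Psma8, Psmg2, Psmd14, Psmd13 and Psmb11 lay at the ends of this relation. Psmg1 and Psmc2 departed from it: both fell further with growth than Psmd14. In the PRC1 cKO Psmg1 rose less than Psmd14, and Psmc2 did not pass.

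**Figure D5:**
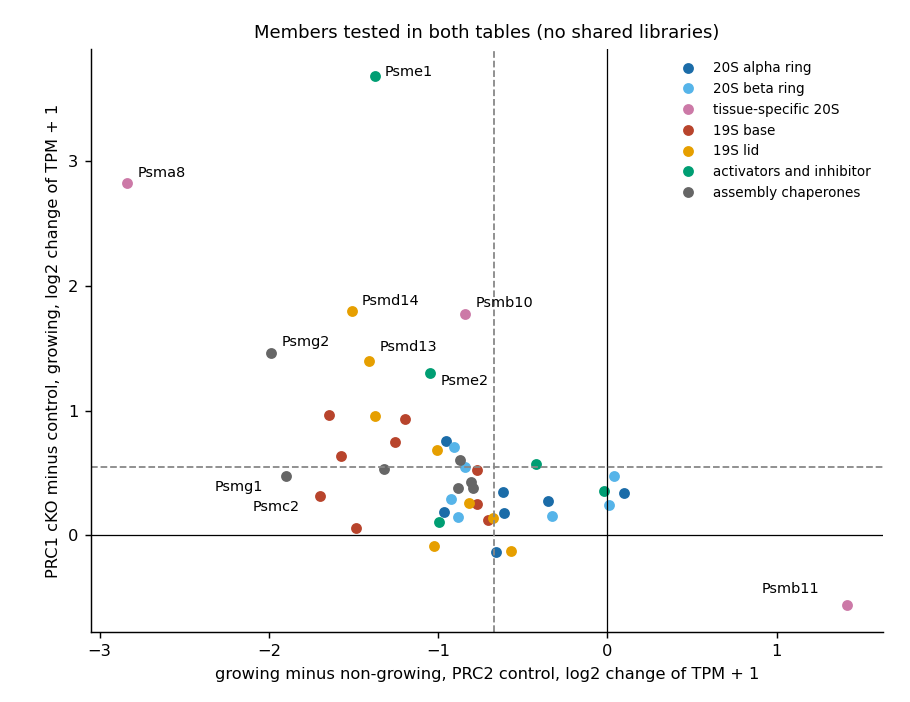
Log2 change of TPM + 1 from non-growing to growing PRC2 control oocytes (x axis) against the log2 change from PRC1 control to PRC1 cKO growing oocytes (y axis) for the 46 members tested in both, coloured by role; dashed lines mark the medians of all genes tested. Psma8 lies at the upper left (-2.84 and 2.82), Psme1 at the top (3.69) and Psmb11 at the lower right (1.41 and -0.56).

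Other genes of the pathway came from 5 lists, none of whose genes passed in the PRC2 cKO comparisons at either stage. Of 9 further proteasome parts and partners, 6 were lower and 1 higher with growth in control oocytes, and 5 were higher and 1 lower in the PRC1 cKO. These counts and those of the other 4 lists stand beside 54.0% of all genes lower and 16.6% higher with growth in control oocytes, and 41.3% higher and 6.45% lower in the PRC1 cKO. Pomp, which matures the 20S, went from 708 and 655 TPM in control non-growing and 707 and 586 in cKO non-growing oocytes to 249 and 245 in control growing and 269 and 221 in cKO growing oocytes, and was at 211 and 235 TPM in control libraries and 406 and 402 in cKO libraries in the PRC1 table (adjusted p = 0.00614). Adrm1, a ubiquitin receptor of the cap, went from 429 and 452 TPM in control non-growing and 292 and 395 in cKO non-growing oocytes to 151 and 156 in control growing and 158 and 219.5 in cKO growing oocytes, and was at 199 and 236 TPM in control libraries and 316 and 274 in cKO libraries (adjusted p = 0.0668). Akirin2, which carries proteasomes into the nucleus, moved the other way: it rose with growth by 0.28 and 0.30 in control and cKO oocytes and fell by 0.68 in the PRC1 cKO, at 77.1 and 71.9 TPM in control libraries and 44.7 and 47.5 in cKO libraries. The deubiquitinases Uchl5 and Usp14 and the subunit Sem1 fell with growth in control oocytes (-1.65, -1.29 and -1.05) and rose in the PRC1 cKO (1.20, 0.81 and 0.74), as did Txnl1 (-1.04 and 0.92). Ecpas rose with growth in cKO oocytes (0.38).

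Of 6 ubiquitin and E1 genes 5 were lower with growth in control oocytes, none higher, and 3 were higher in the PRC1 cKO. Ubb, a polyubiquitin gene, was at 20308 and 20491 TPM in control non-growing and 13867 and 21658 in cKO non-growing oocytes, and 11132 and 9561 in control growing and 8046 and 7065 in cKO growing oocytes, above every proteasome gene in each library. Rps27a, which encodes ubiquitin fused to a ribosomal protein, fell with growth in control oocytes (-1.49) and rose in the PRC1 cKO (0.84). Uba1, an E1 enzyme gene, changed by -0.74 with growth in control oocytes, and Uba6, the other E1 gene, changed by 0.82 in the PRC1 cKO. Of 8 genes of p97 and shuttle factors, 5 were lower with growth and 3 were higher in the PRC1 cKO. Vcp, which encodes p97, was at 101 and 125 TPM in control libraries and 308 and 214 in cKO libraries in the PRC1 table and Ufd1, a cofactor of p97, at 34.3 and 34.4 TPM in control libraries and 71.5 and 67.3 in cKO libraries, and with growth in control oocytes they changed by -1.17 and -1.54. Nploc4 and Ubqln4 changed by -0.57 and -1.24 with growth.

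NRF1, the product of Nfe2l1, is the factor that raises proteasome genes when the proteasome is blocked, and Ddi2 encodes the protease that releases it. Of 8 genes on this list 5 were lower with growth in control oocytes, and 1, Nfe2l2, was higher in the PRC1 cKO. Nfe2l1 was at 6.12 and 7.55 TPM in control non-growing and 5.16 and 5.01 in cKO non-growing oocytes, and 4.92 and 4.32 in control growing and 4.71 and 6.50 in cKO growing oocytes, and at 7.99 and 10.9 TPM in control libraries and 9.46 and 5.51 in cKO libraries in the PRC1 table, and passed in no comparison. Ddi2 was at 10.7 and 11 TPM in control non-growing and 7.54 and 9.64 in cKO non-growing oocytes, and 7.15 and 6.88 in control growing and 7.93 and 11 in cKO growing oocytes, and at 7.94 and 8.07 TPM in control libraries and 4.59 and 6.13 in cKO libraries in the PRC1 table. Nfe2l2, which encodes NRF2, was at 4.89 and 5.23 TPM in control libraries and 18.9 and 16.4 in cKO libraries (log2 change 1.62, adjusted p = 0.00462) and fell by 1.06 with growth in control oocytes. With growth Keap1, Ngly1 and Mafk changed by -1.52, -0.65 and -0.64 in control oocytes, and Mafg by 0.89 in cKO oocytes.

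Genes of MHC class I and interferon responses are the usual company of Psmb8, Psmb9, Psmb10, Psme1 and Psme2. Of 14 listed, 6 could be tested in the PRC1 table, of which 4 were higher and 1 lower. B2m was at 36.2 and 44.4 TPM in control libraries and 116 and 79.1 in cKO libraries and H2-K1 at 114 and 159 TPM in control libraries and 425 and 327 in cKO libraries. H2-D1 was at 1.48 and 2.30 TPM in control libraries and 105 and 58.6 in cKO libraries (log2 change 4.80, adjusted p = 0.00212), but H2-D1 and H2-K1 have close relatives, so how reads were split among them is uncertain. Irf1 was lower, at 58.5 and 69.8 TPM in control libraries and 44 and 28.9 in cKO libraries. The interferon-induced genes Ifit1, Ifit3, Gbp2 and Irf7 were at most 0.26 TPM in every library, and Tap1, next to Psmb9, was listed at 0 and 0.05 TPM in control libraries and 1.08 and 0.61 in cKO libraries. With growth in control oocytes 6 of 7 tested genes of the list were lower, B2m (-0.86) among them.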

How the data were processed

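RNA-seq of 12 oocyte libraries was analysed from 2 deposited tables of TPM per gene model, 1 for the PRC2 genotypes at both stages and 1 for the PRC1 genotypes. The submitters' processing notes name Trim Galore 0.6.10, HISAT2, SAMtools, Subread 2.0.3, RSEM 1.3.3 and the build GRCm38 (mm10), without their roles, and no source used here says whether strand was used in counting. Total RNA was made into libraries with a low-input kit, per the labels' protocols. Each deposited TPM column has the same total, so the read depth behind a value is unknown and no counting interval was given. The tables were analysed apart, and levels were not tested across them.

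Genes were kept where 2 or more libraries of the table reached 1 TPM. Values were tested as log2(TPM + 1) with limma 3.58.1 in R 4.3.3 (1 mean per group, moderated variances with a trend), and p-values were adjusted by Benjamini-Hochberg over all genes kept, with a threshold of 0.05. A change on this scale understates that of low genes. The fit was also run on simulated data with known changes and independent noise. These held no shift of library composition, so they do not bear on the effect of scaling. Values are given for each library for every member that passed in any comparison, for tissue-specific 20S genes, activators and the inhibitor, and for the 3 largest rises and falls; in practice this covered all 49. Pathway genes came from named lists, with values for those that passed and for Nfe2l1, Ddi2, Pomp, Adrm1, Tap1 and B2m; some genes of these lists are not reported here. The members, lists and tests were chosen with earlier results of these data known. Gene classes and overlaps came from GENCODE vM21, whose coordinates matched those of all 49 members, and promoters from RefSeq on GRCm38.p6. Alternatives were other pseudocounts (0.5 and 5), filters, scalings and variance models, a replicate block, a minimum fold of 1.5 and leaving out each library.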

Additional observations from a re-analysis of the deposited data

Results flagged for a closer look

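For 10 of 46 tested members (21.7%) the PRC2 cKO and control libraries did not overlap at either stage, and the cKO lay above the control at one stage and below it at the other. The same held for 1601 of 14153 genes tested (11.3%). The difference of the log2 cKO effects, growing minus non-growing, was 1.386 for Psmd3 (0.786 without PRC2 cKO growing replicate 2), 0.546 for Psmd2, 0.537 for Psmg3, 0.267 for Psmd8 and 0.186 for Psmd4. It was -0.435 for Psme4, -0.349 for Psmb1, -0.297 for Psmd12, -0.261 for Psmb3 and -0.231 for Psmc5. The difference itself was tested as an interaction in limma, and none of the 10 passed (adjusted p = 0.305 to 0.424). The cause of the pattern was not tested.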

How the results depend on the processing

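Scaling had the widest effect, and the cause was not tested. With growth in control oocytes, protein-coding scaling gave 5 higher members, quantile normalization 7 higher and 22 lower, and trimmed-mean scaling 6 higher and 15 lower; in cKO oocytes these were 5, then 6 and 23, then 5 and 26. In the PRC1 comparison, protein-coding scaling gave 13 higher and 1 lower member, quantile normalization 11 and 3, and trimmed-mean scaling 7 and 11 with a median member of -0.318. With no filter 12 members were higher, beside 5754 of 32244 genes. The shares of all genes under the 3 scalings are given with the results above. Changes in log2 with growth in control oocytes turned positive under quantile and trimmed-mean scaling for Psma2 (0.027 and 0.085), Psma6 (0.062 and 0.124) and Psmd12 (0.067 and 0.176), under trimmed-mean scaling for Psma7 (0.136) and Psmc4 (0.035), and under protein-coding, quantile and trimmed-mean scaling for Psma5 (0.142, 0.294 and 0.393), Psmb1 (0.162, 0.339 and 0.415) and Psme4 (0.045, 0.149 and 0.283). In cKO oocytes Psmb3 turned positive under the same 3 (0.242, 0.378 and 0.225), and Psma5 (0.022), Psmb1 (0.003) and Psmf1 (0.11) under quantile normalization. In the PRC1 comparison trimmed-mean scaling turned Psmb4 (-0.027), Psmb5 (-0.255), Psmb6 (-0.186), Psmc1 (-0.094), Psmd1 (-0.207), Psmd10 (-0.127), Psmd5 (-0.301), Psmd7 (-0.048), Psmg1 (-0.249) and Psmg4 (-0.194) negative.

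With the replicate block, 13 members were higher in the PRC1 comparison and none lower, beside 4494 higher and 600 lower of 14941 genes. The growth counts stayed at 1 higher and 40 lower in both genotypes. Of 14153 genes, 2403 were then higher and 7768 lower in control oocytes, and 2947 and 6596 in cKO oocytes. No source says what the replicate numbers share. The correlation of same-numbered deviations was -0.268 in the PRC1 table and -0.0297 to 0.26 in the PRC2 table. The crossed pairing, chosen after seeing the data, gave 28 higher and 1 lower member in the PRC1 comparison, beside 7932 and 1569 of 14941 genes. Leaving out 1 library at a time gave 10 to 19 higher members in the PRC1 comparison, 1 to 3 higher and 38 to 40 lower with growth in cKO oocytes, 36 to 40 lower with growth in control oocytes, and 0 to 1 lower members for the difference of cKO effects between stages. Depth is unknown, so no limit of detection can be given.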
